A study of Mus musculus with 5 samples.

Results

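The genes described are 40 genes of mitosis and cytokinesis, the steps in which a cell separates its copied chromosomes and then divides. They were taken by gene symbol from a fixed list and grouped by role into kinases and cyclins, kinetochore and checkpoint genes, genes of anaphase, kinesins and spindle genes, genes of cytokinesis, and a last group of a transcription factor and chromatin proteins. Of the 40 genes, 39 had at least 1 probe set annotated to that gene alone, with 89 probe sets in all out of 34945 single-gene probe sets on the array. All 39 passed the intensity filter that kept 11075 of 18193 genes, and the cyclin gene Ccnb1 had no probe set of its own. The samples were primary chondrocytes, the cells that make cartilage, isolated by enzyme digestion from ribs of FVB mouse embryos at gestational day 18.5. They were grown on gelatin in medium with serum, ascorbic acid and beta-glycerophosphate for 2, 6, 9, 12 or 15 days, and 1 single-colour array was run for each day. All 5 groups share the strain, the tissue and the medium, and time in culture is the only labelled difference between them. The labels do not say whether the dishes came from a common isolate or how many embryos were pooled. The arrays thus allow each gene to be followed through time in culture.

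The cell cycle runs through DNA replication to mitosis, and most mitotic genes are transcribed just before and during division and are kept low in resting cells. Cyclin-dependent kinase 1 with cyclins A and B drives entry into mitosis. Kinetochores, built on the centromere, attach chromosomes to the spindle while a checkpoint delays their separation, and the anaphase-promoting complex then marks cyclin B and securin for destruction so that separase can act. In the growth plate, division is a property of the columnar chondrocytes and ceases as the cells enlarge.

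Each of the 39 measured genes had less transcript on days 9, 12 and 15 than on day 2, where 49.2%, 50.2% and 49.7% of all measured genes did, and 35 of the 39 did on day 6, against 47.1% of all genes. The median gene stood at 65.7% of its day 2 intensity on day 6, 43.5% on day 9, 43.9% on day 12 and 53.9% on day 15. At day 9 the range ran from 25.9% for the ubiquitin-conjugating enzyme gene Ube2c to 70.5% for the kinetochore gene Nuf2. Because the RNA came from whole cultures, fewer dividing cells and less transcript per dividing cell cannot be told apart.

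The number of genes at least 2-fold lower than at day 2 was 4 of 39 at day 6, against 5.7% of all 11075 measured genes. It was 28 of 39 at day 9 against 10.3% of all genes, 25 at day 12 against 11.4%, and 17 at day 15 against 11.6%. None of the 39 was 2-fold higher than day 2 on any day, where 10.2%, 15.1%, 16.1% and 16.2% of all genes were on days 6, 9, 12 and 15. The median log2 difference from day 2 was -0.61, -1.20, -1.19 and -0.89 on the 4 later days, and over all measured genes it was 0.03, 0.01, -0.00 and 0.00. With 1 array per day there is no replicate error, so these differences between days carry no test.

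The course had a trough. The lowest intensity was read on day 9 in 16 genes and on day 12 in 20, together 92.3% of the genes, and 29.6% of all measured genes had their lowest value on those days. Equal values at the floor were given to the earliest day, which touches the share of all genes but none of the 39. Day 15 was above day 9 in 33 of the 39, against 48% of all genes, with a median log2 difference of 0.24, and none of the 39 was 2-fold higher (5% of all genes) or 2-fold lower (4.05%). Day 15 was also above day 12 in 30 of the 39, against 48.9% of all genes. The 6 genes with less transcript at day 15 than at day 9 were Plk1, Cenpa, Cenpe, Kif11, Kif23 and Ect2. For Kif11 (-0.05) and Cenpa (-0.04) another probe set above the floor went the other way between those days, by 0.59 and 0.12 on the log2 scale. A further Kif11 probe set above the floor went the same way as the brightest, with -0.19. By brightest probe sets only 4 genes, Ttk, Ndc80, Nuf2 and Nusap1, were above day 2 at day 6, by 4.17% to 11.6% of the day 2 intensity. The other 35 had their highest value on day 2 (32.2% of all genes). Dimmer probe sets above the floor were also higher at day 6 than at day 2 for Incenp, Tpx2, Kif11, Hmmr, Cenpf and Cenpa.

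**Figure D1:**
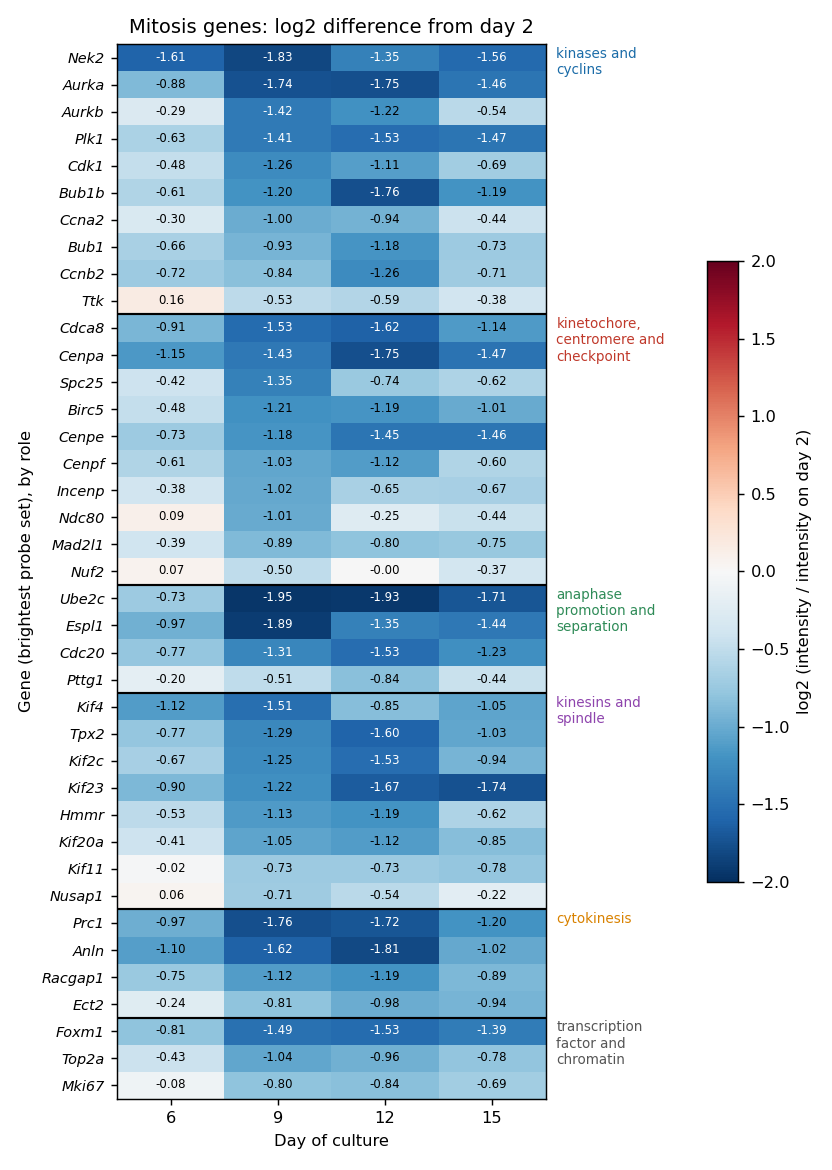
Log2 difference in intensity from day 2 on days 6, 9, 12 and 15 for the 39 measured genes (rows, grouped by role and ordered within a role by the day 9 value), with the value printed in each cell and blue for lower than day 2. Each column is 1 array. The day 9 column is blue in every row, the day 12 column in every row but Nuf2 (-0.00), and in most rows the day 15 cell is paler, with Kif23 as an exception at -1.74.

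Promoters of these genes are shown because many late cell cycle genes are known to share short promoter elements. Late cell cycle promoters are known for the cell cycle genes homology region, abbreviated CHR, with the letters TTTGAA or TTCGAA, and for CCAAT boxes, which bind the factor NF-Y. RefSeq windows of 300 bases on build GRCm38.p6, from 250 before to 50 after a transcript start, were given for 34 of the 40 genes in 36 windows, with no entry for Ccna2, Aurkb, Foxm1, Tpx2, Kif20a and Incenp. Ect2 and Prc1 had 2 overlapping windows each, with the same matches, and each window was counted. CHR letters, on either strand, lay in 28 of the 36 windows (77.8%), and 19.2% of all 32851 windows held them. CCAAT, on either strand, lay in 28 windows (77.8%), against 37.4% of all windows, and at 2 or more places, overlapping matches included, in 19 windows (52.8%), against 11.7%. Both CHR letters and CCAAT at 2 or more places were found in 17 windows (47.2%), and in 2.31% of all windows. The letters TTTGGCGC, TTTCCCGC or TTTCGCGC of E2F sites, which are known from promoters of the earlier replication genes, lay in 1 window, that of Cdk1, and in 1.84% of all windows. A match is a description of the letters and not a site shown to be bound.

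The windows below are those of genes the array results turn on, 6 with both CHR letters and CCAAT, and Nuf2, which held neither. Nuf2 was picked for the highest share of its day 2 intensity at day 9. Birc5, another of the 5 measured genes with neither, was 2.32-fold lower at day 9. Capitals mark CHR letters and CCAAT, or the reverse complement of either, and in Cdk1 the E2F letters, all read 5′ to 3′ on the strand of the gene.
Cdk1, chr10:69352863-69353162, minus strand: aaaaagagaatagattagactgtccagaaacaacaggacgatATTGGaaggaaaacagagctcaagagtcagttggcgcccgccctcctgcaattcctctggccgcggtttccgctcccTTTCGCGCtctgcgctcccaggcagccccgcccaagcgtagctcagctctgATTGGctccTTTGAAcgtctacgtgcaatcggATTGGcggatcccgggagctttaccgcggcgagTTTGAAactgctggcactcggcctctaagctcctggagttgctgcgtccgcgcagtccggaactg
Ccnb2, chr9:70421505-70421804, minus strand: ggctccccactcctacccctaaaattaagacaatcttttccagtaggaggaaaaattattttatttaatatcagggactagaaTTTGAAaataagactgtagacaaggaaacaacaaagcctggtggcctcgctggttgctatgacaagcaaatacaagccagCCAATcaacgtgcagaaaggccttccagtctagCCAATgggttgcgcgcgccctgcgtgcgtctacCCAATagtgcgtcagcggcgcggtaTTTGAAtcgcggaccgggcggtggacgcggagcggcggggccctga
Aurka, chr2:172370521-172370820, minus strand: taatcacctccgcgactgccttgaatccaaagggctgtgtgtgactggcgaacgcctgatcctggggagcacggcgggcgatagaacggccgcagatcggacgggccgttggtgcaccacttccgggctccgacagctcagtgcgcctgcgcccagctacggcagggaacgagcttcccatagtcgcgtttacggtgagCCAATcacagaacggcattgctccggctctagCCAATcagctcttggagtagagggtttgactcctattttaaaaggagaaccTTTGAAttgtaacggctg
Cdc20, chr4:118437294-118437593, minus strand: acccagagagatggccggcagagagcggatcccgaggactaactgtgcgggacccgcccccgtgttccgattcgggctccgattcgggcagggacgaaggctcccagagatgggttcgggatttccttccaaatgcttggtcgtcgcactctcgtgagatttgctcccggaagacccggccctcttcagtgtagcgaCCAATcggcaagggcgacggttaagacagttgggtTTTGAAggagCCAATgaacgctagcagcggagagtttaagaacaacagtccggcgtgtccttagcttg
Ube2c, chr2:164769679-164769978, plus strand: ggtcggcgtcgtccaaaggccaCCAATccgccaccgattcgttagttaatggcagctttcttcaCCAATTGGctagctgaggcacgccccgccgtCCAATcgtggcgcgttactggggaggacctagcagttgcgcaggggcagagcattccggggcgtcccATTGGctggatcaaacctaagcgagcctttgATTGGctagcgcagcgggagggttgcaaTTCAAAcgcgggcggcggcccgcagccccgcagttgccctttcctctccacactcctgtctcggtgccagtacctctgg
Kif23, chr9:61946750-61947049, minus strand: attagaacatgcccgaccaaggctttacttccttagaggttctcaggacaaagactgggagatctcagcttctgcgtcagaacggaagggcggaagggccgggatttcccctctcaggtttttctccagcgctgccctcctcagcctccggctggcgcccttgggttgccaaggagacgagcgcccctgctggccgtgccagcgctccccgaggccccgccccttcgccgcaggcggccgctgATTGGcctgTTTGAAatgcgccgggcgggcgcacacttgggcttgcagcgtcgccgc
Nuf2, chr1:169531415-169531714, minus strand: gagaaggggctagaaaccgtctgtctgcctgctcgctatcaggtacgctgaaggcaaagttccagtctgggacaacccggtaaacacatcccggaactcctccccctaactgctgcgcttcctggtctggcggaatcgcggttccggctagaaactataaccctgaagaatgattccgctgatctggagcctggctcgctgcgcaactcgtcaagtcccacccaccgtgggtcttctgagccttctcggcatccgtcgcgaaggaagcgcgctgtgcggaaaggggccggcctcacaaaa
In Ccnb2 the 3 CCAAT boxes begin at positions -87, -54 and -21 from the transcript start, spaced 33 bases apart, and CHR matches begin at -167 and at 5. Aurka has a pair of CCAAT boxes 32 bases apart, at -51 and -19, with the CHR letters at 33. In Cdc20 the CHR letters at -18 lie between CCAAT boxes at -53 and -8.

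Among the measured genes with a promoter window, 26 held CHR letters and 7 did not, namely Birc5, Cenpe, Mad2l1, Nek2, Nuf2, Nusap1 and Pttg1. With CHR letters, 3, 20, 18 and 12 of the 26 were at least 2-fold lower than day 2 on days 6, 9, 12 and 15. Without them, 1 of 7 was on day 6 and 3 of 7 were on each later day. The shares thus differed most on days 9 and 12 and were close on day 15, with 46.2% against 42.9%. The 16 genes with both CHR letters and CCAAT at 2 or more places had 68.8% at least 2-fold lower at day 9, no more than the 69.7% of all 33 with a window. Outside the list, 1443 measured genes held CHR letters, and 5.13%, 11.2%, 12.3% and 13.3% of them were at least 2-fold lower on days 6, 9, 12 and 15. For the 7510 without CHR letters those shares were 5.37%, 9.75%, 10.9% and 11.1%.

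Kinases and cyclins start and time mitosis. Among the 10 measured, 6 had 2-fold or larger reductions at day 9, 8 at day 12 and 4 at day 15; the shares of all measured genes were 10.3%, 11.4% and 11.6%. Cdk1, the kinase at the centre of mitotic entry, had intensities of 7818, 5592, 3271, 3626 and 4836 on days 2, 6, 9, 12 and 15, an order of days kept in all lists of 5 values that follow. Its low point was 2.39-fold under day 2, and day 15 was 1.48-fold above day 9. Ccna2, cyclin A2, which activates Cdk1 and Cdk2, had 3813, 3103, 1911, 1987 and 2820, and stood at 74.0% of day 2 on day 15. Ccnb2, cyclin B2, a partner of Cdk1, had 3743, 2265, 2091, 1560 and 2291.

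The Aurora kinases differed in the last value. Aurka, which acts at centrosomes and spindle poles, had 2421, 1320, 722, 718 and 877, 2.76-fold under day 2 on the last day. Aurkb, the kinase of the chromosomal passenger complex, had 862, 707, 323, 371 and 592, which was 2.67-fold lower at day 9 and 1.46-fold lower at day 15. Plk1, a kinase needed from centrosome maturation to cytokinesis, had 1926, 1247, 723, 669 and 697, and was no higher on day 15 than on day 9.

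Nek2, a centrosome kinase, differed most in this group at day 9, with 1356, 446, 382, 531 and 461, and it had already reached 32.9% of day 2 at day 6, the lowest share of the 39 genes on that day by brightest probe sets. Its other probe set above the floor had 478, 333, 217, 176 and 232, a smaller difference on days 6 and 9. The checkpoint kinase genes Bub1 and Bub1b had 1696, 1076, 890, 750 and 1023, and 1508, 990, 656, 445 and 659. In both the lowest day was day 12. Ttk, the kinase that starts the spindle checkpoint, differed least, with 840, 938, 583, 558 and 646.

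**Figure D2:**
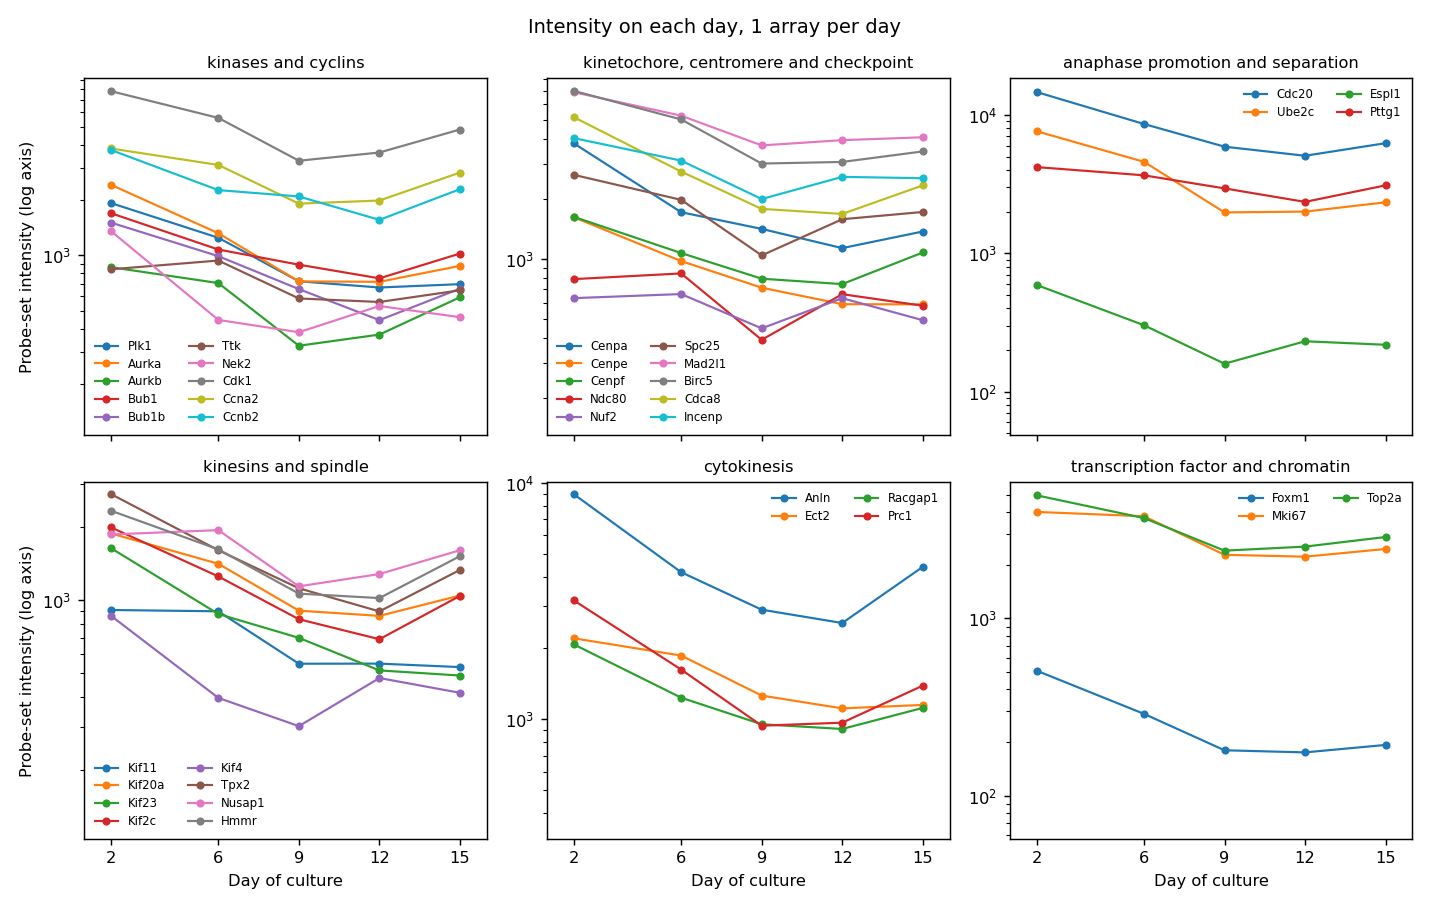
Intensity of the brightest probe set of each gene (logarithmic axis) on days 2, 6, 9, 12 and 15, 1 array per day, in a panel for each role. Lines join the days of a gene. Most lines have their minimum on day 9 or day 12, while those of Kif23, Kif11 and Cenpe are lowest on day 15, and heights of different genes cannot be compared because probe sets differ in brightness.

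Kinetochore, centromere and checkpoint genes had 8 of 10 measured members at least 2-fold lower at day 9, 5 at day 12 and 4 at day 15; the shares of all measured genes were 10.3%, 11.4% and 11.6%. Cenpa, the histone H3 variant that marks centromeres, had 3804, 1713, 1411, 1130 and 1370, with most of the difference present by day 6. Cenpe, the kinetochore motor, had 1617, 973, 714, 590 and 589, lowest on day 15. Cenpf, a large kinetochore and nuclear matrix protein gene, had 1624, 1067, 793, 745 and 1074.

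The NDC80 complex, the part of the kinetochore that grips microtubules, was less uniform. Ndc80 had 789, 843, 391, 663 and 580, Nuf2 had 633, 664, 446, 633 and 490, and Spc25 had 2641, 1976, 1039, 1579 and 1717. All 3 had their minimum on day 9 and a higher value on day 12, with Nuf2 at 99.95% of day 2 on that day, a share the other members did not reach. Mad2l1, the checkpoint protein that restrains Cdc20, had 6879, 5239, 3713, 3946 and 4079.

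The chromosomal passenger complex corrects faulty attachments and consists of Aurkb, Incenp, Birc5 and Cdca8. Birc5, survivin, had 6982, 5014, 3009, 3066 and 3463, and was 2.32-fold lower at day 9. Cdca8, borealin, had 5150, 2742, 1780, 1679 and 2337, the largest difference of this group at day 9, 2.89-fold. Incenp, the scaffold, had 4040, 3113, 1995, 2579 and 2539. By brightest probe sets all 4 subunits were at least 2-fold lower at day 9, against 10.3% of all measured genes. The other Incenp probe sets above the floor had log2 differences of -0.07 and -0.85 on that day. At day 15 the subunits lay between 45.4% (Cdca8) and 68.6% (Aurkb) of day 2.

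Genes that trigger anaphase included the lowest shares of the whole list at days 9 and 12. Ube2c, the ubiquitin-conjugating enzyme of the anaphase-promoting complex, had 7623, 4583, 1975, 2002 and 2336, 3.86-fold lower at day 9 and 3.26-fold lower at day 15. Cdc20, the activator of that complex, had 14631, 8596, 5895, 5067 and 6248. Espl1, separase, which cuts cohesin, had 591, 302, 159, 232 and 218, 3.71-fold lower at day 9. Pttg1, securin, the inhibitor of separase, differed less, with 4197, 3661, 2945, 2352 and 3098, and was never 2-fold lower. The inhibitor and the enzyme thus stood at 70.2% and 27.0% of their own day 2 intensities at day 9.

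Kinesins and spindle genes had 6 of 8 members at least 2-fold lower at day 9, 5 at day 12 and 3 at day 15; the shares of all measured genes were 10.3%, 11.4% and 11.6%. Kif23, a kinesin of the central spindle needed for cytokinesis, had 1633, 876, 699, 514 and 490, which stepped down on each array. It was 3.34-fold lower at day 15, the largest difference of the 39 genes on that day. Kif4, a chromosome-binding kinesin, had 862, 396, 303, 478 and 416, with its minimum on day 9. Kif11, the motor that pushes spindle poles apart, had 910, 899, 547, 548 and 530, level at day 6 and lower from day 9 on.

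Kif20a, another central spindle kinesin, had 1877, 1409, 904, 861 and 1043, and Kif2c, which depolymerises microtubules at centromeres, had 1988, 1249, 834, 690 and 1040. Tpx2, the spindle assembly factor that activates Aurora A, had 2723, 1602, 1117, 898 and 1329. Hmmr, another spindle protein gene, had 2327, 1614, 1062, 1018 and 1514. These 4 genes shared a minimum on day 12 and a higher value at day 15. Nusap1, which bundles spindle microtubules, had 1859, 1936, 1138, 1278 and 1601, the highest share of day 2 at day 15, 86.1%.

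Genes of cytokinesis, the physical split of the cell, ranged at day 9 from 29.5% of day 2 for Prc1 to 57.2% for Ect2. Anln, anillin of the contractile ring, had 8949, 4185, 2905, 2552 and 4410, 3.08-fold lower at day 9 and 2.03-fold lower at day 15. Prc1, which bundles the central spindle, had 3181, 1622, 938, 967 and 1386, 3.39-fold lower at day 9. Ect2 and Racgap1, which together switch on the small GTPase that drives furrowing, had 2199, 1858, 1258, 1111 and 1149, and 2072, 1233, 952, 909 and 1116. At day 9 all of these 4 but Ect2 were under 50% of day 2, where 10.3% of all measured genes were at least 2-fold lower.

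Foxm1, the transcription factor that drives expression of many mitotic genes, had 507, 289, 180, 175 and 193, 2.81-fold lower at day 9 and 2.63-fold lower at day 15. Mki67, the gene of the proliferation antigen Ki-67, had 3989, 3771, 2286, 2230 and 2465, and stood at 94.5% of day 2 at day 6. Top2a, the topoisomerase that untangles sister chromosomes, had 4951, 3682, 2412, 2542 and 2880. Foxm1 was thus lower at each later day, as a share of its own day 2 value, than Mki67 or Top2a was of its own.

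Probe sets of the same gene gave a second reading of the same arrays. Of the 39 genes 26 had several probe sets, and 20 had at least 1 other probe set above the floor of 73.1 on all days, which gave 32 further probe sets. At day 9 all 32 were lower than at day 2, 16 of them at least 2-fold. At day 15, 30 were lower, 11 at least 2-fold, and the exceptions were a Top2a and a Cenpf probe set, at log2 differences of 0.13 and 0.11. Day 15 was above day 9 in 26 of the 32. No share of all probe sets is given beside these counts. By brightest probe sets, 49.2% and 49.7% of all measured genes were lower at days 9 and 15, and 10.3% and 11.6% at least 2-fold. In 48% of them day 15 was above day 9. The pooled SD of a log2 difference between probe sets of a gene was 0.49 at day 9 and 0.36 at day 15, from 52 probe sets of 20 genes, and it does not hold the variation between arrays or dishes. Kif23 was 1.27 lower on the log2 scale at day 9 and 2.05 lower at day 15 by its second probe set, and Cenpe was 0.73 and 1.59 lower by its own. One Cdc20 probe set, near the floor at day 9 with 75.5, gave a log2 difference of -4.17 where the brightest gave -1.31. A dim Pttg1 probe set had 72.3 at day 2 and 194 at day 15, against the direction of the brightest. Incenp was level by a dimmer probe set, with 542, 638, 518, 527 and 533.

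**Figure D3:**
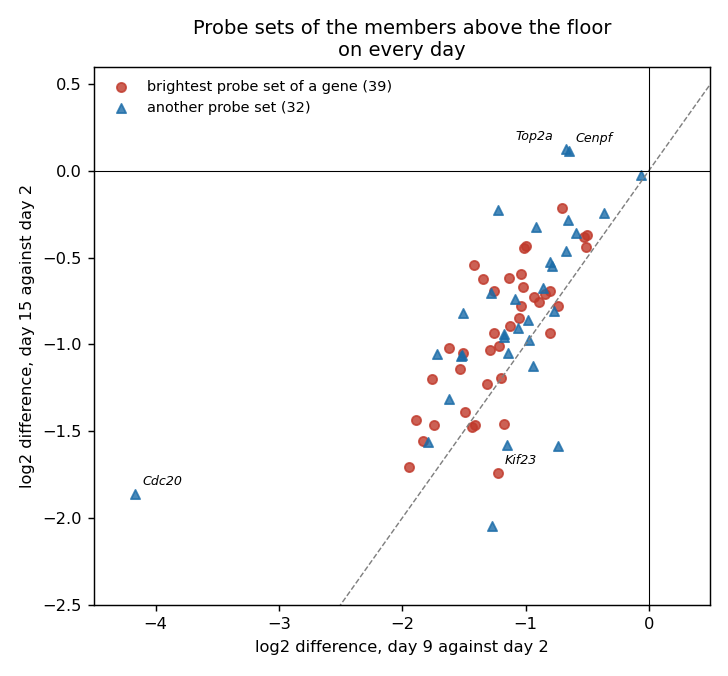
Log2 difference from day 2 at day 9 (horizontal) and day 15 (vertical) for the 71 probe sets of these genes that stayed above the floor, with circles for the brightest probe set of a gene and triangles for another. Points above the dashed line of equality were closer to day 2 at day 15 than at day 9. All points lie left of 0 at day 9, and most lie above the dashed line.

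Other genes of chromosome segregation, 112 listed by complex, gave 107 measured genes. At day 9 a 2-fold or larger reduction was read for 25 and a 2-fold or larger increase for 1, with a median log2 difference of -0.54, against 10.3% and 15.1% of all measured genes. The same 10.3% is the background of each count by complex that follows. Condensin, which compacts mitotic chromosomes, had 2 of 8 genes at least 2-fold lower and a median of -0.77. Ncapg had 1393, 983, 408, 604 and 712, and the core subunit Smc4 was nearly level with 7334, 6691, 6226, 6254 and 7314.

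Cohesin and its regulators had 1 of 14 genes at least 2-fold lower at day 9 and a median of -0.27. This count is near the background. That gene was Cdca5, sororin, which protects cohesion, with 2257, 1942, 1032, 1274 and 1426. The subunits of the anaphase-promoting complex, with 2 of its regulators, also had 1 of 14, near the background too, with a median of 0.01. The lower gene was Fbxo5, an inhibitor of the complex, with 1354, 1332, 663, 999 and 1011. The subunit gene Cdc16 had 4404, 4355, 4917, 6103 and 7059 and Anapc11 had 1768, 1830, 1925, 1995 and 3331. Ube2c and Cdc20, which work with this complex, stood at 25.9% and 40.3% of day 2 at day 9.

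Further kinetochore genes had 7 of 30 members at least 2-fold lower and 1 higher at day 9, with a median of -0.56. Zwilch, of the complex that brings checkpoint proteins to kinetochores, had 2080, 1187, 855, 884 and 880, and Kntc1 of the same complex had 810, 571, 253, 296 and 422. Pmf1, a subunit of the Mis12 kinetochore complex, was the higher gene, with 152, 203, 356, 233 and 189. Further spindle and centrosome genes had 8 of 20 at least 2-fold lower and a median of -0.80. Sass6, needed to build new centrioles, had 718, 630, 240, 195 and 115.

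Among 16 further genes of mitotic entry, 4 stood under the 2-fold line at day 9, with a median of -0.70. Mybl2, a transcription factor of late cell cycle genes, had 235, 162, 101, 138 and 98.5, and the kinase gene Pbk had 3767, 2807, 1537, 2187 and 2435. Mastl, the kinase that protects the phosphorylation of Cdk1 substrates, was not lower at day 9, with 350, 424, 371, 344 and 682. Among 5 further cytokinesis genes Cep55, a scaffold of the final cut, had 1993, 1624, 961, 985 and 1062, and Iqgap3 had 668, 270, 187, 179 and 293. Cit, citron kinase, had its highest value on day 15, with 110, 80.7, 104, 198 and 322, and Rhoa, which has many uses outside division, had 7733, 8956, 10982, 10555 and 11550.

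**Figure D4:**
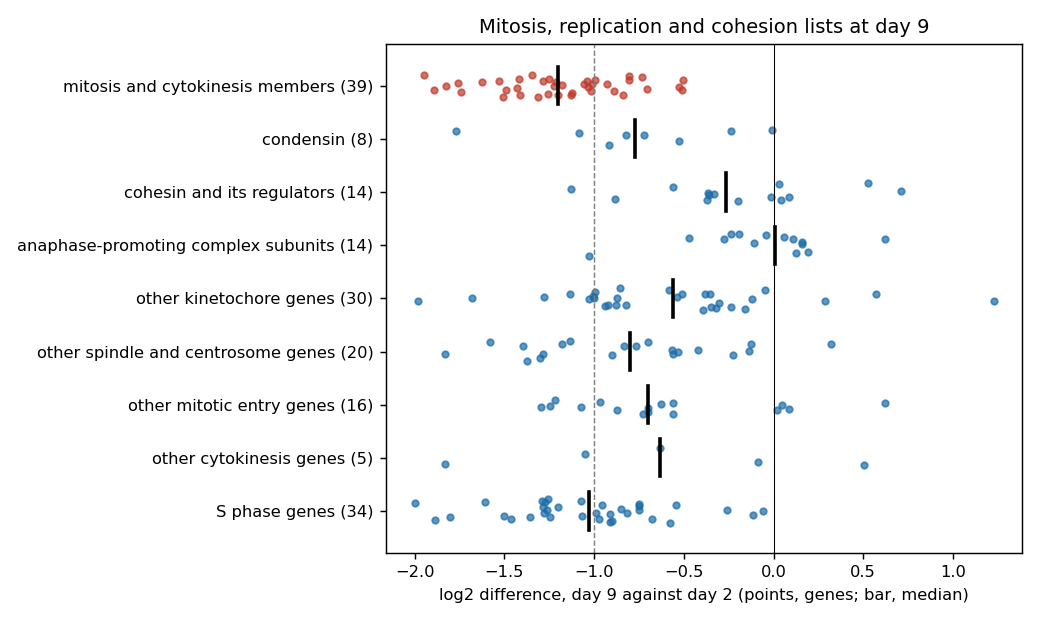
Log2 difference at day 9 against day 2 for each measured gene (points) of the mitosis and cytokinesis genes and of 8 further lists, with black bars for medians, the dashed line at 2-fold lower and the number of genes in brackets. The median bars of the anaphase-promoting complex and cohesin lists lie at 0.01 and -0.27, and that of the mitosis and cytokinesis genes at -1.20.

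Genes of S phase, the replication phase before mitosis, were set beside the mitotic genes. Of 34 measured, 3, 17, 15 and 13 were at least 2-fold lower than day 2 on days 6, 9, 12 and 15, against 5.7%, 10.3%, 11.4% and 11.6% of all measured genes, and their medians were -0.43, -1.03, -0.86 and -0.77. The day 6 count is close to its background. The day of the minimum was day 9 for 19 and day 12 for 4 of the 34 S phase genes, and day 15 for 11. For the mitotic genes those numbers were 16, 20 and 3 of 39. Fen1, the flap endonuclease, had 3199, 1663, 916, 826 and 420, and Mcm10, a replication initiation factor, had 647, 374, 175, 204 and 212. E2f1, a transcription factor of S phase genes, had 382, 457, 197, 296 and 511. No test of the difference between these lists was made.

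**Figure D5:**
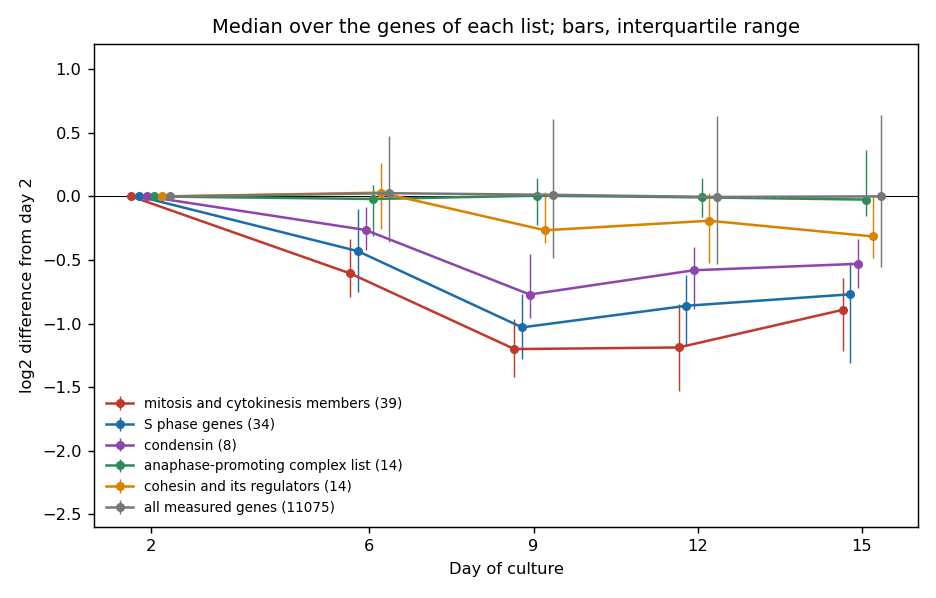
Median log2 difference from day 2 on each day for 6 sets of genes, with bars for the interquartile range over genes and the number of genes in brackets. Points are shifted sideways for clarity. The mitosis and cytokinesis genes lie lowest on every later day, at -0.61, -1.20, -1.19 and -0.89, followed by the S phase genes, while all measured genes stay within 0.03 of 0.

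The only tests that 1 array per day allows are of a course over all 5 arrays. A straight line of log2 intensity on day, fitted with limma to all 11075 genes, had a negative slope in all 39 genes, and none passed at a limma adjusted p under 0.05. Of all genes 0% passed with a falling line and 0.0542% with a rising one. Adjusted p-values for the 39 ran from 0.0734 (Kif23) to 0.582 (Nuf2), and 16 of 39 had an unadjusted p under 0.05 with a falling line, against 12.7% of all genes. A curved course, tested with limma by a moderated F of day and day squared, passed in 3 of 39 (7.69%), near the 6.37% of all genes, and 27 had an unadjusted p under 0.05, against 33.8%. Those 3 were Kif23 with a limma adjusted p of 0.0403, Cenpa with 0.0457 and Cenpe with 0.0483. The F takes day and day squared together, so a steady fall can pass it, and bending alone was not tested. Kif23 and Cenpe stepped down on each array. All 3 calls were lost with the floor at percentile 60 and with no filter, and each was lost under at least 1 further alternative. A line on the logarithm of day, which gives the early days more weight, passed in 8 of 39 (20.5%), against 4.3% of all genes for a falling line and 6.63% for a rising one. They were Kif23, Cenpe, Plk1, Cenpa, Foxm1, Ube2c, Cdc20 and Aurka, with limma adjusted p-values from 0.0201 to 0.0415, and for Ube2c the slope was -0.70 ± 0.14 (SE) log2 units per doubling of time.

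Markers of several cell types also differed between these days. All 11 chondrocyte markers, among them Col2a1, Acan and Sox9, were above the floor on every day. The summed intensity of these markers was 140959, 125372, 76279, 32744 and 46051 in order of day, and by day 15 at least a 2-fold lower intensity than on day 2 was read for 9 of 11 (11.6% of all genes), while Matn1 had 745 at day 15, against 213 at day 2. The summed intensity of 8 fibroblast markers was 7410, 40412, 110083, 135691 and 159547, that of 5 osteoblast markers 570, 1190, 15728, 30992 and 43143, and that of 6 adipocyte markers 2071, 3497, 25550, 59012 and 33745. Bright genes carried much of these 3 sums. At day 15 Col1a1, Col1a2 and Col3a1 had 36146, 44563 and 38737, Ibsp had 35026 and Fabp4 had 24981. Smooth muscle markers summed to between 9257 and 38932 and macrophage and osteoclast markers to between 2556 and 6534, lowest at day 2 in both. Much of the latter sum was Ctsk, with 1010 on day 2 and 5190 on day 15. Of 7 macrophage and osteoclast markers measured, 3 were at least 2-fold lower at day 9 (10.3% of all genes) and 2 higher (15.1%). Those lower were Csf1r (380 to 156), Cd14 (447 to 76.3) and Adgre1 (155 to 18.8, below the floor). Skeletal muscle markers summed to between 894 and 1885. Endothelial markers, 3 of 6 below the floor on all days, summed to at most 378, and red cell precursor markers, 4 of 5 below it, to at most 255. The part of these cell types in the lower mitotic transcripts was not tested.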

How the data were processed

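Total RNA of 5 cultures was hybridised to 1 array each. The deposited values are linear probe-set intensities that the authors computed with MAS5, a tool named without a version in the submitters' processing notes. Trimming 2% from either end gave every array a mean of 500.003: the values were scaled array by array, which would hide a change common to most transcripts. Median intensity was 106 to 118 per array, the share of probe sets at the floor or brighter was 58.8% to 61.9%, and Actb control probes had 3' over 5' ratios of 1.17 to 1.27. Gapdh control probes had ratios of 0.779, 0.707, 0.616, 0.627 and 0.798 on days 2, 6, 9, 12 and 15, lowest on days 9 and 12. The number of arrays limits the precision. The genome build behind the probe sets is not given in the sources used here.

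Gene names came from the platform table, with symbols brought up to date by RefSeq's list of genes on GRCm38.p6. Among 45101 probe sets, 34945 had 1 symbol, 932 several and 9160 none, and 64 were controls. Values below the 40th percentile, 73.1, were raised to it and log2 was taken (no value used for the 39 genes lay below it). A gene was its brightest probe set, kept at a mean intensity of 105.9 or more, the median over probe sets. Trends were fitted with limma 3.58.1 in R 4.3.3 (eBayes, two-sided, Benjamini-Hochberg over all 11075 genes, 3 residual degrees of freedom for a line and 2 for a curve), and tested on simulated data. Tables and figures were made with Python 3.11.15, pandas 2.3.3, numpy 2.4.6 and matplotlib 3.10.9. With 1 array per day, p-values measure the spread about a fitted course, which may be technical.

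The genes and lists were chosen with earlier results of these data known. All members could be named. From other lists the text names genes among the 2 highest and 2 lowest at day 9 and at day 15. Promoter sequences are from RefSeq. Alternatives were other normalizations, floors, filters and probe-set rules, each array left out, and a logarithmic time scale.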

Additional observations from a re-analysis of the deposited data

How the results depend on the processing

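At day 9 all measured members were below day 2 under the 8 alternatives that keep 1 value per gene, and at day 15 all were but Pttg1 with the mean over probe sets (0.15 on the log2 scale). At day 12 the exception was Nuf2 with median centring. At day 6, 32 of 39 genes were lower with the mean over probe sets, where 35 were by brightest probe sets. The mean over all probe sets left 16, 15 and 9 of 39 genes at least 2-fold lower than day 2 at days 9, 12 and 15. The shares of all genes under that rule were 7.44%, 8.42% and 8.69%. Under it 1 of the 39 genes was 2-fold higher at day 15 than at day 9. With every probe set as a unit, 45, 41, 28 and 12 of 72 were at least 2-fold lower at days 9, 12, 15 and 6, and 2 were 2-fold higher at day 15 than at day 9. No share of all probe sets is given beside these counts. Centring each array on its median moved the median of all genes at days 9, 12 and 15 by 0.15, 0.11 and 0.14 from day 2 and left 21, 24 and 13 genes at least 2-fold lower. Of all genes, 8%, 9.22% and 9.15% were at least 2-fold lower under that centring. The median log2 difference of the members at day 9 lay between -1.20 and -0.91 under all alternatives run, and at day 15 between -0.90 and -0.69.

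The straight line passed in 1 gene, Kif23, with the filter at the 70th percentile, in 8 genes on the log2 of day, and in 0 with any of the 5 arrays left out, where 2 to 31 genes had an unadjusted p under 0.05 by limma (2 without day 2 and 31 without day 15). For the curved course, a floor at percentile 20 left 1 gene passing and a floor at percentile 60 left 0. It passed in 0 genes without a filter, in 11 with a pseudocount in place of the floor and in 16 with the stricter filter, and the cause was not tested. No share of all genes under these alternatives is given, so the counts have no background beside them. Of the 3 genes named for it, Kif23 also lost its call with the mean over probe sets, Cenpa with that, with median centring and with the floor at percentile 20, and Cenpe with median centring and with the floor at percentile 20. With every probe set as a unit no Cenpa or Cenpe probe set passed, and for Kif23 a dimmer probe set passed but not the brightest. Of 620 other values, single differences at days 9 and 15, 16 moved by more than the SD between probe sets, all with the mean over probe sets. No paired analysis was possible because each day has 1 array. A second array on any day would be needed for the error of a difference between days.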
